A study of Mus musculus with 6 samples.

Results

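The genes described here are 10 members of the circadian clock and of its PAR bZIP output branch, taken from 19505 genes that carry a single symbol on the array. They are Arntl (also called Bmal1), Npas2, Nr1d1, Nr1d2, Dbp, Tef, Hlf, Nfil3, Per1 and Per2, and each was measured by 1 probe set. They were chosen because of their values in this same comparison, so their levels and differences are given as a description without a test. The samples were 6 Affymetrix arrays of RNA labelled liver from C57BL/6J mice, 3 labelled H-Exo and 3 labelled L-Exo. The mice were young adult males fed a high-fat diet (HFD) and gavaged daily over 14 days, 2000000000 vesicles each time. H-Exo recipients received exosomes isolated from the feces of mice on long-term HFD, and L-Exo recipients received exosomes from mice on regular chow. Feces of several mice had been pooled for each isolation. Both groups ate the HFD, and no recipient on chow and no recipient without exosomes is on these arrays. Nothing in the labels or methods ties the 3 arrays of either group to different animals, and the spread behind any p-value may therefore be technical.

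The clock is a loop of transcription factors. BMAL1 pairs with CLOCK or NPAS2 and drives genes that carry E-boxes, among them Per1, Per2, Nr1d1, Nr1d2 and Dbp. PER proteins return to block BMAL1, while the nuclear receptors REV-ERBα and REV-ERBβ, encoded by Nr1d1 and Nr1d2, bind RORE elements and repress Arntl, Npas2 and Nfil3. DBP, TEF and HLF are the PAR bZIP activators that pass the rhythm on through D-box elements, and NFIL3 represses at the same sites. In mouse peripheral tissues, gut included, Arntl and Npas2 therefore peak in a different part of the day from Nr1d1 and Dbp. The sources used here give a light/dark cycle for the animal room but no hour of tissue collection, and its part in the values below was not tested.

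RefSeq promoter windows, 250 bases before to 50 bases after an annotated start on GRCm38.p6, were matched for 9 of the 10 genes and gave 12 windows. Per2 had no match. The stretches below are shown because they hold the elements through which the arms of the loop act, 5′ to 3′ on the gene's own strand with the matched element in capitals. A match describes the letters of the window and is not evidence of a working site in these samples.
Arntl RORE, chr7:113207528-113207557, + strand: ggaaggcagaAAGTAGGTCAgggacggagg
Nr1d1 E'-box, chr11:98775388-98775417, - strand: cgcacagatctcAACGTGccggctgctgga
Tef E-box, chr15:81802534-81802563, + strand: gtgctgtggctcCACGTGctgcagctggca
Tef E-box at its other start, chr15:81811264-81811293, + strand: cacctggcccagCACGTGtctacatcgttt
Hlf CRE, chr11:90390908-90390937, - strand: ggtgcgggcccTGACGTCActcttgtcagg
Per1 upstream window, chr11:69098699-69098948, + strand: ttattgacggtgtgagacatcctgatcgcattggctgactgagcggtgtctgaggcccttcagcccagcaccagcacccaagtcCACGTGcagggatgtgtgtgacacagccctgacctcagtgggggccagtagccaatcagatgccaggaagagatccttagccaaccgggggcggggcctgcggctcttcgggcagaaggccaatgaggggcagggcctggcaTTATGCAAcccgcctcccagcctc

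The Arntl element is a RORE, searched on both strands as the half-site AGGTCA or GGGTCA preceded by AANT, and it begins at base 28 after the start. Of all 32851 promoter windows, 0.435% hold a RORE of this form, and among the members' 12 windows only this Arntl window did. The canonical E-box CACGTG, present in 7.15% of all windows, lay in both Tef windows and in 1 of the Per1 windows, where it begins 166 bases before the start. The variant E'-box CACGTT, in 4.68% of all windows, was read on the opposite strand of Nr1d1 as AACGTG, 28 bases before the start. The D-box forms TTATGTAA and TTACGTAA, in 1.06% of all windows, were in none of the 12. The related octamer TTATGCAA, searched after the sequences had been seen and held by 0.743% of all windows, lay 24 bases before the Per1 start. The cAMP response element TGACGTCA, in 1.79% of windows, was found at Hlf alone. Dbp, Nr1d2, Npas2 and Nfil3 held none of these letters within their windows.

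The arrays themselves go against the label liver. Intestinal epithelium markers were bright, 9 of 10 being above background on all 6 arrays, where background is the 95th percentile of each array's negative control probes (7.97 to 8.41 on the log2 scale). Of 12 hepatocyte markers 1 did so, Cps1, an enzyme that the small intestine also makes, and 8 were above background on no array. The share of named genes above background on all 6 arrays was 19.1%. The H-Exo replicate 1 and L-Exo replicate 1 arrays stand apart, with mean correlations to the others of 0.963 and 0.951, against 0.971 to 0.975 for the remaining arrays. Their smooth muscle markers were also the highest, with a list median of 17.1, 15.2 and 14.5 on H-Exo arrays 1, 2 and 3 and of 17.1, 15.4 and 14.4 on L-Exo arrays 1, 2 and 3. The level of the muscle list differed between replicate numbers and was alike in the 2 groups. These are tissue samples, in which fewer cells of a type and less RNA per cell cannot be told apart.

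The genes that REV-ERB is known to repress were brighter in H-Exo, with Arntl, Npas2 and Nfil3 at log2 differences of 1.45, 1.13 and 1.31. The BMAL1-driven genes split. Dbp, Nr1d1 and Nr1d2 were dimmer in H-Exo, at -4.80, -2.52 and -1.77, whereas Per1 was brighter, at 0.73, and Per2 was at -0.086 with overlapping groups. Of the other members, the PAR bZIP genes Tef and Hlf were at -0.67 and -0.25. Nfil3, Per1, Per2, Tef and Hlf were below background on all 6 arrays, so their differences are uncertain. Among 22206 probe sets, Dbp had the largest negative difference, Nr1d1 ranked 8 and Nr1d2 ranked 30 from the low end, while Arntl ranked 105 from the high end. Groups did not overlap for 3 members that were higher in H-Exo (Arntl, Nfil3, Per1) and for 2 that were lower (Dbp, Nr1d2). Over all probe sets these shares were 4.9% and 4.71%, and since the members were chosen on this contrast nothing is read from the counts.

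**Figure D1:**
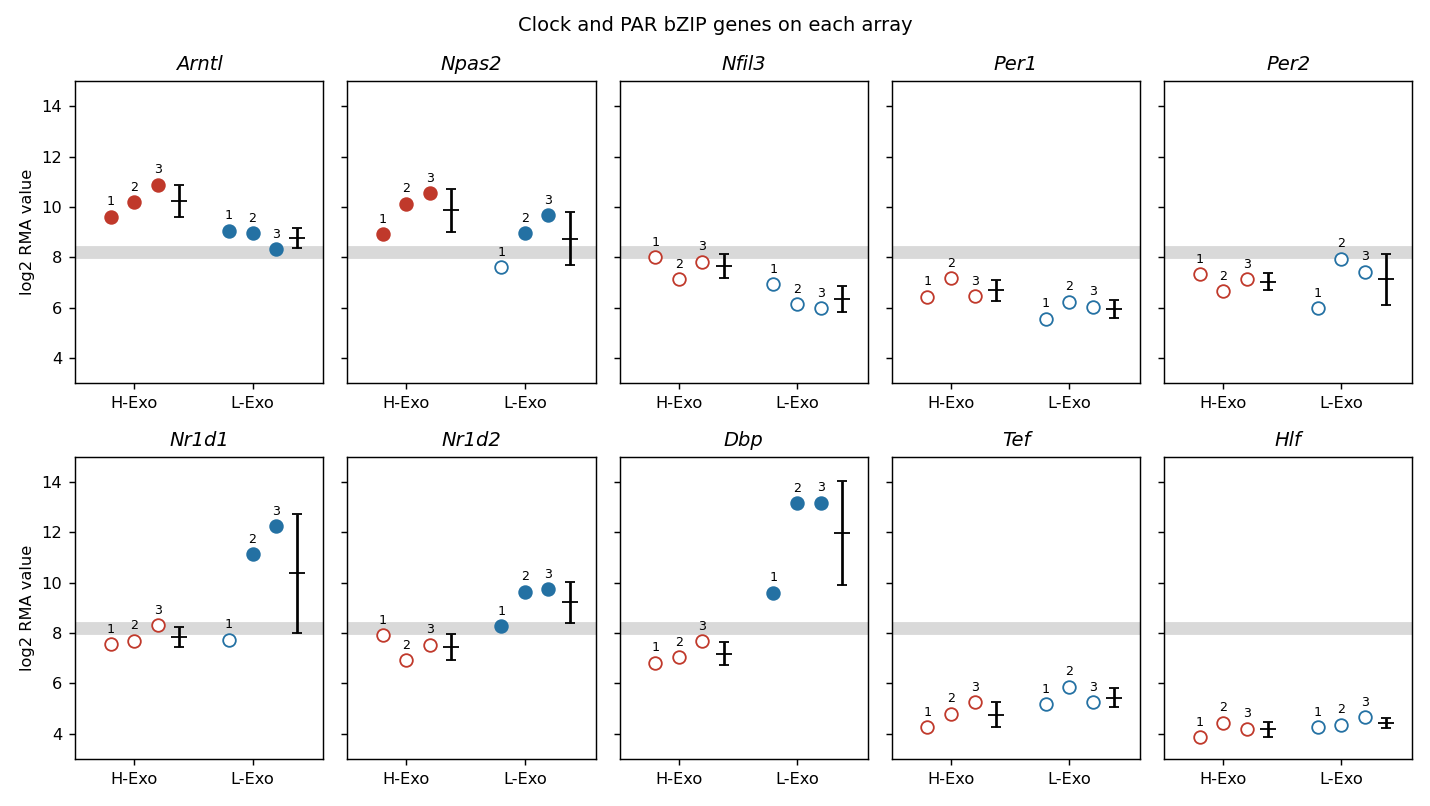
Log2 RMA value (vertical axis) of each of the 10 genes on the 3 H-Exo arrays (red) and the 3 L-Exo arrays (blue), numbered by replicate; filled points lie above that array's background, open points do not, the grey band spans the arrays' background levels, and black bars give mean ± SD (n = 3). Dbp lies between 6.82 and 7.67 in H-Exo and between 9.60 and 13.18 in L-Exo, while Arntl lies between 9.61 and 10.88 in H-Exo and between 8.33 and 9.06 in L-Exo.

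Arntl encodes BMAL1, the partner without which the loop does not run. Its log2 value was 9.61, 10.20 and 10.88 on H-Exo arrays 1, 2 and 3, against 9.06, 8.97 and 8.33 on L-Exo arrays 1, 2 and 3. It was the only member above background on all 6 arrays, and its lowest H-Exo value was 0.55 above its highest L-Exo value. The means were 10.23 ± 0.63 in H-Exo and 8.78 ± 0.40 in L-Exo (SD, n = 3 each), a difference of 1.45 (standard error 0.39). Without any single array the difference lay between 1.12 and 1.75. Against a stricter background, the 99th percentile of the negative controls, Arntl was above the level on 0 arrays.

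Npas2 encodes the paralog of CLOCK that pairs with BMAL1. It was at 8.92, 10.13 and 10.56 on H-Exo arrays 1, 2 and 3 and at 7.61, 8.95 and 9.67 on L-Exo arrays 1, 2 and 3. Within each group the array labelled replicate 1 was the dimmest, and the groups overlapped. The value on L-Exo replicate 1 was below background. The difference of 1.13 (standard error 0.58) became 0.56 without L-Exo replicate 1. Those replicate 1 arrays are the ones with the highest smooth muscle markers, and the part of this in Npas2 was not tested. Without both replicate 1 arrays the difference was 1.04.

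Nfil3, the repressor that competes with DBP for D-boxes, was at 8.01, 7.12 and 7.82 on H-Exo arrays 1, 2 and 3, against 6.94, 6.13 and 5.97 on L-Exo arrays 1, 2 and 3. Every H-Exo value was above every L-Exo value, by a margin of 0.18, but all 6 lay below background. Between 89.4% and 93.5% of the negative control probes were dimmer than Nfil3 in H-Exo and between 66.5% and 85.8% in L-Exo. Its difference was 1.31 (standard error 0.38), which stands as an order of arrays rather than a size, and no fold is given. Nfil3 is also used by lymphocytes. The B cell marker list had a median of 5.41, 7.05 and 5.15 on H-Exo arrays 1, 2 and 3 and of 4.81, 4.64 and 5.11 on L-Exo arrays 1, 2 and 3, with 7 of 7 measured genes higher in H-Exo, 0 above background on all 6 arrays and 5 on none. The T cell marker list had a median of 6.21, 6.07 and 5.24 on H-Exo arrays 1, 2 and 3 and of 4.76, 5.19 and 5.44 on L-Exo arrays 1, 2 and 3, with 6 of 7 measured genes higher in H-Exo and all 7 above background on no array. The part of these markers in the Nfil3 values was not tested.

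The PER genes encode the repressors that close the loop. Per1 was at 6.44, 7.16 and 6.45 on H-Exo arrays 1, 2 and 3 and at 5.56, 6.24 and 6.05 on L-Exo arrays 1, 2 and 3. Its groups did not overlap, by a margin of 0.20, and no array was above background. The difference was 0.73 (standard error 0.34), on the same side as Arntl and opposite to Nr1d1 and Dbp, the other E-box genes driven by BMAL1. Per2 was at 7.34, 6.64 and 7.13 on H-Exo arrays 1, 2 and 3 and at 5.99, 7.95 and 7.42 on L-Exo arrays 1, 2 and 3. The H-Exo values lay inside the L-Exo range, the difference was -0.086 (standard error 0.49), and its sign depended on which array was left out, from -0.65 without L-Exo replicate 1 to 0.33 without L-Exo replicate 2.

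Nr1d1 encodes REV-ERBα. It was at 7.54, 7.70 and 8.31 on H-Exo arrays 1, 2 and 3, against 7.73, 11.13 and 12.24 on L-Exo arrays 1, 2 and 3. L-Exo replicates 2 and 3 were far above the rest, and L-Exo replicate 1 lay among the H-Exo arrays. Only L-Exo replicates 2 and 3 were above background, and a bound worked out from the arrays put Nr1d1 4.36-fold lower in H-Exo. This is not a strict minimum, because L-Exo replicate 1, itself below background, entered the L-Exo mean at its own value. For such a bound the mean of the L-Exo arrays was set against a floor for H-Exo, which on every array was the dimmest probe set still above background, or Nr1d1 itself where brighter. At the 90th percentile of the negative controls Nr1d1 was above the level on all 6 arrays, and at the 90th and 99th no bound could be set for Nr1d1, Nr1d2 or Dbp. The bound moved to 10.9-fold when L-Exo replicate 1 was left out, to 3.35-fold without replicate 2 and to 2.28-fold without replicate 3 of that group. The span of Nr1d1 overlaps that of Thra in RefSeq. Thra, with a probe set of its own, was at 8.67, 8.38 and 9.12 on H-Exo arrays 1, 2 and 3 and at 8.23, 8.41 and 8.79 on L-Exo arrays 1, 2 and 3, and did not show the contrast of Nr1d1.

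Nr1d2, for REV-ERBβ, was at 7.91, 6.91 and 7.53 on H-Exo arrays 1, 2 and 3 and at 8.28, 9.64 and 9.74 on L-Exo arrays 1, 2 and 3. All L-Exo arrays were above background and no H-Exo array was, with a gap of 0.36 between the groups. The difference was -1.77 (standard error 0.45), and the bound was at least 1.97-fold lower in H-Exo. As for Nr1d1, L-Exo replicate 1 was the dimmest of its group. Set against the mean of L-Exo replicates 2 and 3, it stood at -1.42 for Nr1d2 and at -3.95 for Nr1d1. That array had the highest smooth muscle level of its group and the lowest epithelium level, with an epithelium list median of 17.7, 17.9 and 18.1 on H-Exo arrays 1, 2 and 3 and of 16.8, 18.0 and 18.1 on L-Exo arrays 1, 2 and 3. The epithelium marker Alpi (13.63, 16.23 and 17.09 on L-Exo arrays 1, 2 and 3) was low on it too. Alpi had the widest drop of that list, whereas Epcam hardly moved (19.05, 19.16 and 19.16 on L-Exo arrays 1, 2 and 3). The part of these marker levels in the members' values was not tested. Without both replicate 1 arrays the Nr1d2 difference was -2.47.

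Dbp, a PAR bZIP gene with a wide daily swing in many mouse tissues, was at 6.82, 7.05 and 7.67 on H-Exo arrays 1, 2 and 3, against 9.60, 13.15 and 13.18 on L-Exo arrays 1, 2 and 3. The 3 H-Exo arrays lay within 0.86 of each other and below background, and the L-Exo arrays spread over 3.58 and were all above it. The gap between the groups was 1.92. The means were 7.18 ± 0.44 in H-Exo and 11.98 ± 2.06 in L-Exo (SD, n = 3 each), with a difference of -4.80 (standard error 0.84). The bound was at least 13.3-fold lower in H-Exo, and it moved to 30.3-fold without L-Exo replicate 1, to 8.84-fold without L-Exo replicate 2 and to 8.76-fold without L-Exo replicate 3. At the 99th percentile of the negative controls Dbp was above the level on 2 arrays, both L-Exo, and at the 90th on 1 H-Exo array as well as all L-Exo arrays.

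Dbp overlaps Sphk2, a sphingosine kinase gene on the opposite strand, whose own probe set read 7.43, 7.84 and 7.14 on H-Exo arrays 1, 2 and 3 and 6.79, 8.71 and 8.52 on L-Exo arrays 1, 2 and 3. Its difference of -0.53 was small beside that of Dbp, and its brighter arrays, L-Exo replicates 2 and 3, were the brighter arrays of Dbp. The strand read by the probes was not checked, and the part of Sphk2 in the Dbp values was not tested. Hepatocyte markers lay on the same side, with 11 of 12 lower in H-Exo and list medians of 5.05 to 5.83 in H-Exo and 5.74 to 6.17 in L-Exo, mostly below background. Among them Alb (albumin) was at 5.14, 5.47 and 5.86 on H-Exo arrays 1, 2 and 3, all below background, and at 8.31, 8.26 and 10.72 on L-Exo arrays 1, 2 and 3, all above it, a difference of -3.61 without overlap. The list gene Trf (transferrin) differed by -1.29, also without overlap. The part of these markers was not tested either.

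The other PAR bZIP activators were dim. Tef was at 4.25, 4.80 and 5.25 on H-Exo arrays 1, 2 and 3, against 5.18, 5.87 and 5.26 on L-Exo arrays 1, 2 and 3. The groups overlapped through H-Exo replicate 3 alone. Hlf was at 3.87, 4.44 and 4.19 on H-Exo arrays 1, 2 and 3 and at 4.25, 4.35 and 4.65 on L-Exo arrays 1, 2 and 3, with overlapping groups. On no array were more than 65.5% of the negative control probes dimmer than Tef or more than 30.7% dimmer than Hlf, and a difference in either gene was not detectable against this background. Their differences were -0.67 (standard error 0.36) and -0.25 (standard error 0.30).

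**Figure D2:**
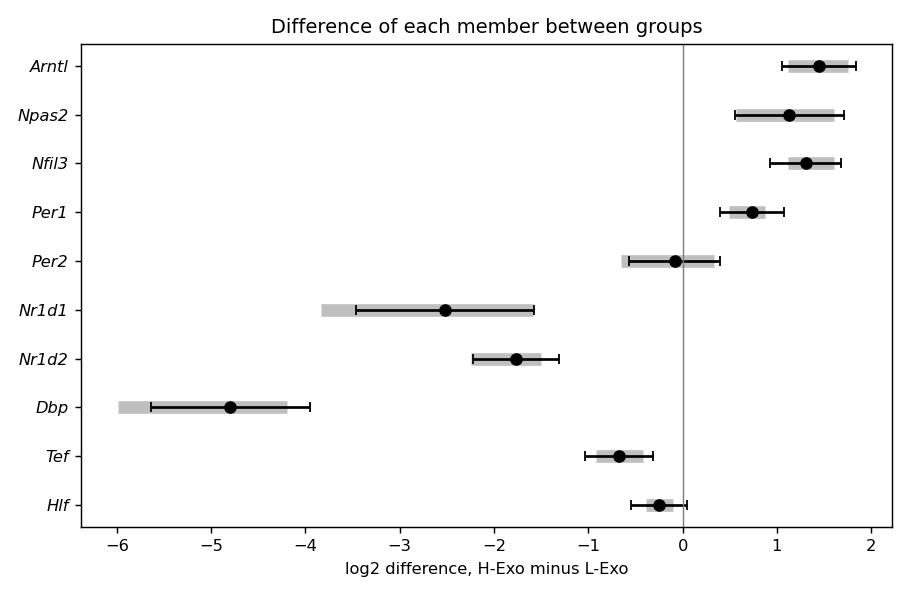
Log2 difference, H-Exo minus L-Exo (horizontal axis), for each gene (rows), with black bars for the limma standard error and grey bars for the range when each of the 6 arrays was left out in turn. Dbp (-4.80), Nr1d1 (-2.52) and Nr1d2 (-1.77) lie left of 0 and Arntl (1.45), Nfil3 (1.31) and Npas2 (1.13) right of it throughout, while Per2 crosses 0.

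The relation of the 2 arms was then read on each array. Each gene was centred on its own mean over the 6 arrays, since values of different probe sets cannot be set against each other, and the centred values were averaged for Arntl, Npas2 and Nfil3 and for Dbp, Nr1d1 and Nr1d2. These sets were chosen with the directions known, and the driven set leaves out Per1 and Per2. The averages also hold values below background, so their sizes are uncertain. These values are Nfil3 on all 6 arrays, Dbp, Nr1d1 and Nr1d2 on the H-Exo arrays, and Npas2 and Nr1d1 on L-Exo replicate 1. On H-Exo arrays 1, 2 and 3 the REV-ERB-repressed genes stood at 0.24, 0.55 and 1.15 and the BMAL1-driven genes at -1.58, -1.79 and -1.17. Without Nfil3, an alternative chosen after seeing the data, the repressed genes stood at -0.14, 0.76 and 1.31 on H-Exo arrays 1, 2 and 3. The positive average on H-Exo replicate 1 thus rested on Nfil3. On L-Exo arrays 1, 2 and 3 the repressed genes stood at -0.74, -0.59 and -0.62 and the driven genes at -0.47, 2.30 and 2.71. The repressed genes were above the driven genes on all 3 H-Exo arrays and below them on all 3 L-Exo arrays.

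The difference between the arms was 1.83, 2.34 and 2.32 on H-Exo arrays 1, 2 and 3, close to one another, and -0.26, -2.89 and -3.33 on L-Exo arrays 1, 2 and 3, where replicate 1 lay nearest to H-Exo. Its mean was 2.16 ± 0.29 in H-Exo and -2.16 ± 1.66 in L-Exo (SD, n = 3 each). The group means mirror each other because the genes were centred, and the choice of genes fixes the direction. With Per1 and Per2 added to the driven set, an alternative chosen after seeing the data, the difference was 1.12, 1.54 and 1.81 on H-Exo arrays 1, 2 and 3 and -0.084, -2.13 and -2.26 on L-Exo arrays 1, 2 and 3, so that on L-Exo replicate 1 the arms hardly differed. On L-Exo replicate 1 both arms as first averaged were below their means, with Dbp at 0.02, Nr1d1 at -1.38, Nr1d2 at -0.06, Arntl at -0.45 and Npas2 at -1.70.

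**Figure D3:**
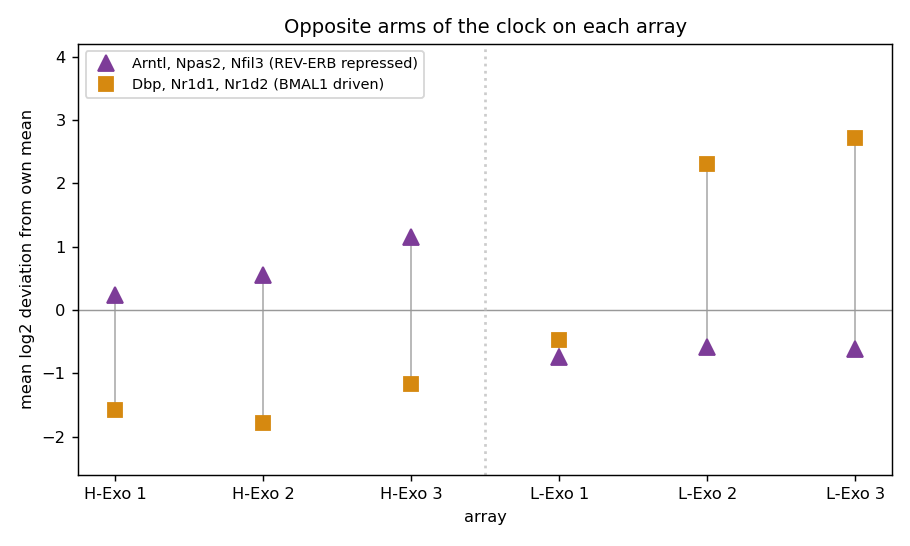
Mean log2 deviation from each gene's own mean over 6 arrays (vertical axis) on each array (horizontal axis, H-Exo left of the dotted line), as triangles for Arntl, Npas2 and Nfil3 and squares for Dbp, Nr1d1 and Nr1d2. Triangles lie above squares on H-Exo arrays and below them on L-Exo arrays, with the smallest distance, 0.26, on L-Exo replicate 1.

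Pairs of genes were also followed over the arrays. Arntl and Dbp were on opposite sides of their means on all 6 arrays, with the same sign on 0, and so were Nfil3 and Dbp. The genes were chosen on this contrast and centred over both groups, so opposite signs between the groups are largely built in. On L-Exo replicate 1 the signs rest on Dbp at 0.02 and Nfil3 at -0.06, and Nfil3 was below background throughout. Arntl and Nfil3 had the same sign on 6 of 6 arrays, Nr1d1 and Nr1d2 on 6 and Dbp and Nr1d1 on 5, the exception being L-Exo replicate 1. Npas2 shared the sign of Arntl on 4 of 6, departing on H-Exo replicate 1 and L-Exo replicate 3, and Per2 shared that of Arntl and of Dbp on 3 of 6 each. Within L-Exo, Nr1d1, Nr1d2, Dbp and Npas2 ran in the same order, highest on replicate 3 and lowest on replicate 1, and Arntl and Nfil3 ran in the reverse order. Dbp differed little between L-Exo replicates 2 and 3, at 13.15 and 13.18. Within H-Exo, Arntl, Npas2, Nr1d1 and Dbp were all highest on replicate 3 and lowest on replicate 1, while Nfil3 and Nr1d2 were highest on replicate 1 and lowest on replicate 2. Arrays share their RNA across genes, so these orders are not independent of each other.

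The genes nearest to Dbp and to Arntl were looked for among 5047 other genes above background on at least 3 arrays, by root mean square distance between centred values over the 6 arrays. Dbp and Arntl were chosen on this contrast, so nearness to them favours genes with the same group difference and is a description only. For Dbp the nearest were the hepatocyte marker Alb at 1.22, the transporter genes Abcc2 at 1.40, Abcb1b at 1.79 and Abcb1a at 1.81, and Nr1d2 at 1.72. Alb and Nr1d2 met the minimum of 3 arrays through the L-Exo arrays alone. Abcc2 was at 6.16, 8.07 and 9.01 on H-Exo arrays 1, 2 and 3 and at 9.39, 10.23 and 12.23 on L-Exo arrays 1, 2 and 3. Nr1d1, above background on fewer arrays than that minimum, was at a distance of 1.19 from Dbp. For Arntl they were Tmem252 at 0.33, Zfp62 at 0.33, Slc25a22 at 0.40, Nop53 at 0.41 and Sltm at 0.43, each higher in H-Exo by 0.74 to 0.96. Nfil3, at 0.54, was the nearest member to Arntl.

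Clock genes outside the 10 were then counted in a fit over all probe sets. The lists, like the members, were chosen with earlier results of these data known, so their counts and p-values serve as a description. Of 22206 probe sets 0 passed limma at the adjusted threshold of 0.05 (0%), with a lowest adjusted p of 0.637, and 0 passed the methods' t-test after adjustment. At an unadjusted p under 0.05 limma gave 901 (4.06%), of which the higher ones in H-Exo made up 2.32% of all probe sets and the lower ones 1.74%. Of 11 other core clock genes 10 were measured, 6 higher and 4 lower in H-Exo, and 0 passed at either level. Their median difference was 0.058, beside -0.0097 for all probe sets. Clock, the usual partner of BMAL1, was bright on every array, at 13.63, 13.45 and 14.61 on H-Exo arrays 1, 2 and 3 and 14.93, 13.44 and 13.74 on L-Exo arrays 1, 2 and 3, with -0.14 between the means (standard error 0.47, adjusted p by limma 0.992). Bhlhe40, for the E-box repressor DEC1, was above background on all 6 arrays too, and its difference was 0.61 (standard error 0.68, adjusted p by limma 0.988), a value that ran from -0.32 to 1.22 when 1 array was left out.

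The remaining core genes lay below background on all 6 arrays. Cry1, which REV-ERB also represses, was at 5.92, 6.79 and 8.22 on H-Exo arrays 1, 2 and 3 and at 6.61, 6.80 and 5.55 on L-Exo arrays 1, 2 and 3, with overlapping groups and a difference of 0.66 (standard error 0.57). Cry2 differed by 0.085, and Arntl2, the BMAL1 paralog, by -0.17. Ciart, a BMAL1-driven repressor, was at 4.07, 4.22 and 4.22 on H-Exo arrays 1, 2 and 3 and at 3.90, 5.48 and 5.60 on L-Exo arrays 1, 2 and 3. All 6 values were far below background, and L-Exo replicate 1 was the lowest. Per3 was at 5.78, 4.61 and 6.70 on H-Exo arrays 1, 2 and 3 and at 5.30, 6.45 and 6.97 on L-Exo arrays 1, 2 and 3. Of the ROR activators, Rora differed by 0.031 and Rorb by 0.42, and Bhlhe41 differed by 0.37.

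Kinases, ubiquitin ligases and other proteins that modify the clock factors formed the next list. Of its 10 measured genes 7 were higher and 3 lower, with a median of 0.077, and 0 passed at the adjusted level. Csnk1d, the kinase that marks PER for decay, differed by 0.0016 (standard error 0.41) at values between 13.08 and 14.51. Usp2, a deubiquitinase with a strong rhythm in mouse tissues, was at 7.77, 8.08 and 8.17 on H-Exo arrays 1, 2 and 3 and at 8.07, 9.55 and 9.39 on L-Exo arrays 1, 2 and 3. Its difference of -1.0 (standard error 0.41, limma adjusted p = 0.988) was the only one of the list at an unadjusted p under 0.05. Over all probe sets 1.74% were lower in H-Exo at that unadjusted level.

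The list of genes known as outputs of the clock or of PAR bZIP factors had members on both sides. Of 17 measured, 8 were higher and 9 lower, with a median of -0.030, and 0 passed at the adjusted level. Slc9a3, the sodium-proton exchanger NHE3, was at 10.57, 10.58 and 9.72 on H-Exo arrays 1, 2 and 3 and at 7.55, 7.70 and 8.35 on L-Exo arrays 1, 2 and 3. Its difference of 2.42 (standard error 0.36, limma adjusted p = 0.637) passed only with array weights, and its sign was opposite to that of Dbp. Slc9a3 was above background on 3 H-Exo arrays and 1 L-Exo array, so the size is uncertain. Abcb1a, the drug efflux pump gene that HLF and TEF induce in mouse intestine, was at 11.57, 15.18 and 15.52 on H-Exo arrays 1, 2 and 3 and at 14.09, 16.50 and 17.65 on L-Exo arrays 1, 2 and 3, or -1.99 between the means (standard error 1.11, adjusted p by limma 0.988), which was -0.73 without H-Exo replicate 1. Noct, which encodes the rhythmic protein nocturnin, differed by 0.64 and Coq10b by 0.86. Coq10b was above background on 2 arrays, both H-Exo.

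Per1 also responds to glucocorticoid hormone and to CREB, and genes with those inputs were counted beside it. Per1 was below background on all 6 arrays, and the part of these inputs in its values was not tested. Of 9 glucocorticoid-induced genes 8 lay on the H-Exo side. The median over the 9 was 0.98, beside -0.0097 for all probe sets, and the list was chosen with earlier results known. Over all probe sets 2.32% were higher in H-Exo at an unadjusted p under 0.05 by limma. Of the 9 genes 0 passed at the adjusted level, and 3 were at that unadjusted level. These 3 were Zbtb16, Tsc22d3 (GILZ) and Ddit4, with differences of 1.39 (standard error 0.35), 1.26 (standard error 0.33) and 1.19 (standard error 0.40, limma adjusted p = 0.988 for each). Zbtb16 was above background on 0 arrays and Ddit4 on 2, both H-Exo, so these sizes are uncertain. Tsc22d3 was at 7.94, 8.70 and 8.58 on H-Exo arrays 1, 2 and 3 and at 6.88, 7.07 and 7.51 on L-Exo arrays 1, 2 and 3, above background on 2 arrays. Fkbp5, bright on all 6 arrays and a common readout of the receptor, differed by 0.62 (standard error 0.39) with overlapping groups, and Klf9 by -0.34.

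Of 7 measured CREB-induced genes 7 were higher, with a median of 0.64, and 4 were above background on no array. At the adjusted level 0 passed, and Sik1 alone was at an unadjusted p under 0.05 by limma. Over all probe sets 2.32% were higher in H-Exo at that unadjusted level. The part of CREB in the Per1 values was not tested. Sik1, the kinase that limits light-driven Per1 induction, was at 6.37, 6.23 and 6.39 on H-Exo arrays 1, 2 and 3 and at 5.45, 5.42 and 5.88 on L-Exo arrays 1, 2 and 3, all below background. Nr4a2 differed by 0.46 and Pde4b by 0.64, and both were above background on 0 arrays. The immediate early gene Fos was at 8.77, 11.49 and 7.91 on H-Exo arrays 1, 2 and 3 and at 6.14, 9.02 and 8.97 on L-Exo arrays 1, 2 and 3.

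**Figure D4:**
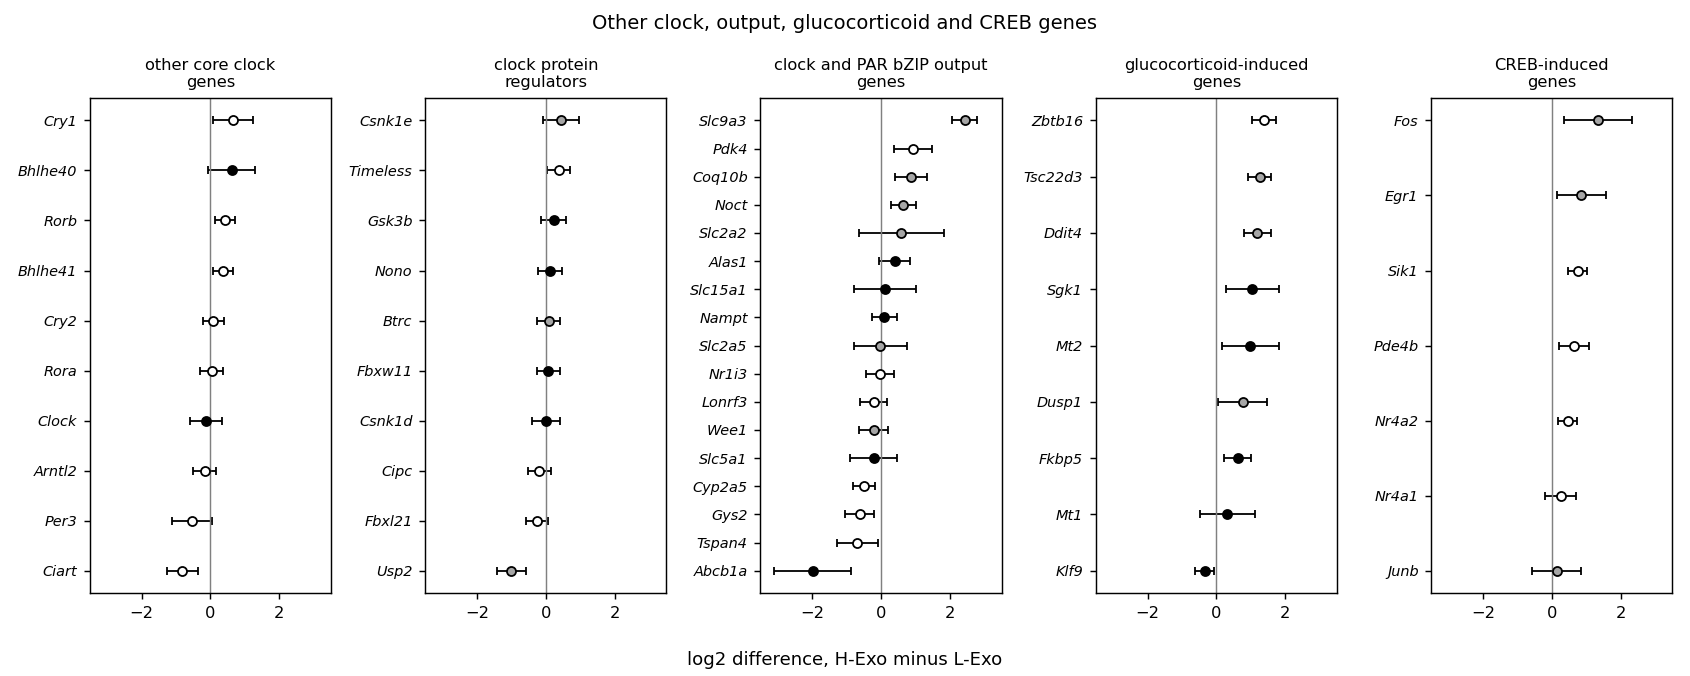
Log2 difference, H-Exo minus L-Exo (horizontal axis), with limma standard errors, for the genes of 5 lists outside the 10 members; black points were above background on all 6 arrays, grey points on some and white points on none. The core clock and regulator genes centre near 0, with medians of 0.058 and 0.077, while 8 of 9 glucocorticoid-induced genes and 7 of 7 CREB-induced genes lie right of 0.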

How the data were processed

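The authors deposited log2 values per probe set, made with Transcriptome Analysis Console 4.0 and RMA, a method that subtracts background, equalizes the arrays and combines the probes of each set. Its settings and the genome build were not stated in the material used. Values ran from 2.70 to 19.93, and array medians from 5.52 to 5.56. The table held 28846 rows, of which 5222 were negative control probes and 1418 further controls. The other 22206 probe sets (19572 with 1 symbol in the platform annotation, 2634 unnamed) were tested in R 4.3.3 with limma 3.58.1, moderated and two-sided, and p-values were adjusted by the Benjamini-Hochberg method against 0.05. No filter or further normalization was applied. The step was tested on simulated data with independent noise and arrays of equal quality. That setting leaves out the differences between arrays seen here.

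The members and lists were chosen with earlier results of these data known. A gene measured more than once was represented by its brightest probe set on average. Genes named were the 10 members, the other core clock genes, up to 4 genes of smallest p per further list, and the 5 nearest to Dbp and to Arntl. Csnk1d, Klf9, Thra, Sphk2, Cps1, Trf, Alpi and Epcam were named besides, chosen after their values were seen. Some listed genes are not reported here. Alternatives covered the moderation, a filter on dim probe sets, the scaling, weights per array, a block for the replicate number, arrays left out, the methods' t-test, probe sets averaged per gene, and the background percentile. The number of arrays limits the precision.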

Additional observations from a re-analysis of the deposited data

How the results depend on the processing

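At the adjusted threshold 0 probe sets passed limma as reported, and 0 passed with a trended and robust variance, without dim probe sets, after quantile or median scaling, with probe sets averaged per gene and with the replicate block. The methods' t-test gave 921 before adjustment and 0 after it. Array weights gave 10, Dbp among them, and leaving out both replicate 1 arrays gave 1, Dbp. With single arrays left out the number was 0 to 1, namely Dbp when L-Exo replicate 1 was dropped and Pla2g4c when H-Exo replicate 3 was dropped. Dbp was chosen on this same contrast, so its passing is no test of it. L-Exo replicate 1 was also the L-Exo array on which Dbp was lowest, and it had the lowest array weight, 0.315. In the clock, output, glucocorticoid and CREB lists 0 genes passed in each of these fits except with array weights, where 1 did, Slc9a3. Same-numbered arrays of the groups deviated together with correlations of 0.219, 0.0429 and 0.182. For H-Exo replicates 1 and 3 no other L-Exo array gave a higher value, while H-Exo replicate 2 had 0.0849 with L-Exo replicate 3. The numbers were not taken to pair the arrays in the main fit, and what same-numbered arrays share was not tested.

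The difference between the arms, H-Exo minus L-Exo, was 4.32, and 3.74 to 5.27 with single arrays left out. In 2 alternatives chosen after seeing the data it was 2.98 with Per1 and Per2 added to the driven genes and 4.32 without Nfil3. Of 129 member differences under alternatives, 125 kept their sign and moved by less than the spread between arrays. Much of this was fixed in advance. Leaving out 1 of 3 arrays cannot move a difference by that spread. The replicate block and the averaging of probe sets, 1 for each member, return the same differences. The filter on dim probe sets does so too for the members it keeps. Nothing about stability is read from this count. Per2 changed sign, to 0.33 when L-Exo replicate 2 was left out, 0.065 for L-Exo replicate 3 and 0.11 for H-Exo replicate 2 (range over single arrays -0.65 to 0.33), and Nr1d2 moved to -2.47 without both replicate 1 arrays. With background set at the 90th percentile of the negative controls Nr1d1 was above it on 6 arrays, Nfil3 on 2 and Per2 on 1, and at the 99th Nr1d1 on 1 and Arntl, Npas2 and Nr1d2 on 0. No bound for Dbp, Nr1d1 or Nr1d2 could be set at either. The causes were not tested.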
